A study of Mus musculus with 2 samples.

Results

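Irf8, Irf4, Batf3, Zbtb46, Id2 and Relb encode regulators of transcription that are used to tell the branches of the dendritic cell lineage apart. They were selected by gene symbol and make up 6 of the 55386 features counted in each of 2 single-cell RNA libraries of immune cells from the mouse aorta, and all 6 had counts in both libraries. The study followed arterial macrophages of yolk sac and bone marrow origin at rest and in the inflammation caused by Angiotensin II (AngII), a peptide hormone that raises blood pressure. All mice were RankCreRosa26eYFP animals of 16 weeks. Cre was driven by Rank (Tnfrsf11a), and a yellow fluorescent protein at Rosa26 marks cells in which Cre has been active and their progeny. Both libraries carry these alleles, so neither comes from mice without them. CD45+ leukocytes were sorted from the adventitia, the outer layer of the aorta, and captured as single cells. The steady state library came from 3 pooled mice without treatment. The AngII library came from 2 pooled mice given AngII at 1.8 µg per kg and minute for 10 days. There was 1 library per condition, so treatment, mice and library cannot be told apart and no comparison between conditions has a replicate check.

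Dendritic cells take up antigen in tissues and present it to T cells, and they fall into branches that depend on different factors. Type-1 dendritic cells, which cross-present antigen to cytotoxic T cells, need IRF8, BATF3 and ID2. Type-2 dendritic cells, which favour helper T cell responses, depend largely on IRF4. ZBTB46 marks conventional dendritic cells of both branches. RELB, a subunit of NF-kB, is induced as dendritic cells mature and migrate towards lymph nodes through the chemokine receptor CCR7. None of these genes is limited to dendritic cells: IRF8 also acts in monocytes and B cells, IRF4 in activated lymphocytes, and ID2 in innate lymphoid and natural killer cells.

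On GRCm38, Irf8 (ENSMUSG00000041515.10) lies on chr8:120736358-120756694 on the plus strand and Irf4 (ENSMUSG00000021356.10) on chr13:30749226-30766976, also on the plus strand. Batf3 (ENSMUSG00000026630.9) spans chr1:191097847-191108945 on the plus strand. Zbtb46 (ENSMUSG00000027583.13) spans chr2:181387762-181459426, Id2 (ENSMUSG00000020644.9) chr12:25093799-25097140 and Relb (ENSMUSG00000002983.17) chr7:19606217-19629438, all on the minus strand. All 6 are protein-coding genes. RefSeq promoter entries on GRCm38.p6 matched 5 of the 6 genes, and Relb had none. The promoters of the pair of interferon regulatory factors are shown because their transcripts had opposite patterns in the type-1 and type-2 gates described below, and that of Batf3 because BATF3 acts with IRF8. Each run holds the 250 bases before the RefSeq start in transcript direction (Irf8 chr8:120736108-120736357, plus strand; Irf4 chr13:30748983-30749232, plus strand; Batf3 chr1:191098164-191098413, plus strand), with motif matches in capitals.
Irf8: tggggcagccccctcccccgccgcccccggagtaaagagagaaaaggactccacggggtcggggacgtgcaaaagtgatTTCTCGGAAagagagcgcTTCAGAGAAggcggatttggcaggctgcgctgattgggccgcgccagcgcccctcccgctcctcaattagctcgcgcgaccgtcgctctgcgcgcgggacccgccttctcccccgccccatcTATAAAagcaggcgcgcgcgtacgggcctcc
Irf4: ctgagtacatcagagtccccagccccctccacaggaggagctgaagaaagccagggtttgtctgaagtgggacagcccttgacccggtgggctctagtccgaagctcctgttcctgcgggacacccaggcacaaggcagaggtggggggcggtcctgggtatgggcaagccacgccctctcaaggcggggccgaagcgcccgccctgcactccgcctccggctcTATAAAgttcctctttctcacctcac
Batf3: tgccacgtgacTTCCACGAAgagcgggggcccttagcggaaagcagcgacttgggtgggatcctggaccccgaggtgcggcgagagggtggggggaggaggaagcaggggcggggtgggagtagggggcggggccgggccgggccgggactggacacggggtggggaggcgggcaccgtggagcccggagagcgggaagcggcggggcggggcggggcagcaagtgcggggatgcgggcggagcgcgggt
The 5 motifs searched on both strands were the TATA box (TATAAA), a core of the interferon-stimulated response element (GAAANNGAA), a core of the composite element of ETS and IRF factors (GGAANNGAA), the STAT site known as GAS (TTCNNNGAA) and the AP-1 site (TGANTCA). The Irf8 window held 2 GAS matches, from 171 to 163 and from 153 to 145 bases before the start, and Batf3 held 1, from 239 to 231. A GAS match was found in 7.02% of all 32851 promoter windows of this length. Irf8 and Irf4 each held a TATA box (12.4% of all windows), from 31 to 26 and from 26 to 21 bases before the start. The interferon response core (7.13% of all windows) and the ETS and IRF core (6.99%) were in none of the 3 windows shown, nor was the AP-1 site (6.75%). A match describes these letters only. The RefSeq start of Batf3 lies 567 bases from the annotated gene start, so its window falls inside the gene span given above. Irf8 had a second entry, 2281 bases from the gene start, which held no match and is not shown.

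The steady state library held 346 barcodes (in most cases 1 cell each) with 4009678 unique molecular identifiers (UMIs, each standing for 1 captured transcript), and the AngII library held 4419 barcodes with 20481854 UMIs. A filter on genes and mitochondrial UMIs kept 306 barcodes with a median of 9105 UMIs at steady state, but 4198 with a median of 1092 in the AngII library. No barcode sequence was shared between the libraries. Barcodes were gated by 13 lists of 8 marker genes, none of them among the 6 factors, and 89.9% of the filtered steady state barcodes and 72.3% of the AngII barcodes entered a gate. Barcodes with marker sets of more than 1 class (26 and 687) were left out, and no doublet caller was run.

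The type-1 gate (Xcr1 or Clec9a present) held 11 steady state and 113 AngII barcodes, with median depths of 21019 and 5104 UMIs. The type-2 gate (Cd209a present, few C1q UMIs) held 14 and 82 barcodes at 25110 and 12912.5 UMIs. The migratory gate (Ccr7 or Fscn1 present) held 31 AngII barcodes at a median of 11016 UMIs and 0 of 306 filtered barcodes at steady state, which allows a share of up to 0.980%. Genes outside the marker lists were used as a check. Snx22 reached 146 and 132 CPM (UMIs of the gene for each 1000000 UMIs of the gate) in the type-1 gate but 1.29 and 6.90 CPM in macrophages, and Samsn1 and Tmem123 reached 1301 and 1587 CPM in the migratory gate. The type-2 gate was less distinct. Mgl2, at 1910 and 1234 CPM, stood above its macrophage level (1219 and 419 CPM), but Sirpa, at 158 and 213 CPM, stood below its own (211 and 375 CPM). The gate also held macrophage transcripts, with Mrc1 at 569 and 360 CPM and Csf1r at 107 and 186 CPM, against 2249 and 1208 CPM of Mrc1 and 1390 and 785 CPM of Csf1r in macrophages. Of the 8 macrophage markers, 6 were found in the gate at steady state and 8 with AngII, with summed levels of 820 and 837 CPM against 18655 and 14777 CPM in macrophages, and Fcgr1 was at 0 at steady state. The part of these transcripts in the type-2 values was not tested. The macrophage gate held 126 and 1878 barcodes and the lymphocyte gates (T, B, natural killer and type-2 innate lymphoid cells) 91 and 417 together. Levels are CPM of UMIs summed over all barcodes of a gate, with exact 95% Poisson intervals, and ratios have exact 95% conditional intervals. All intervals and limits cover counting error only, and levels are compared within a gene, not between genes.

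**Figure D1:**
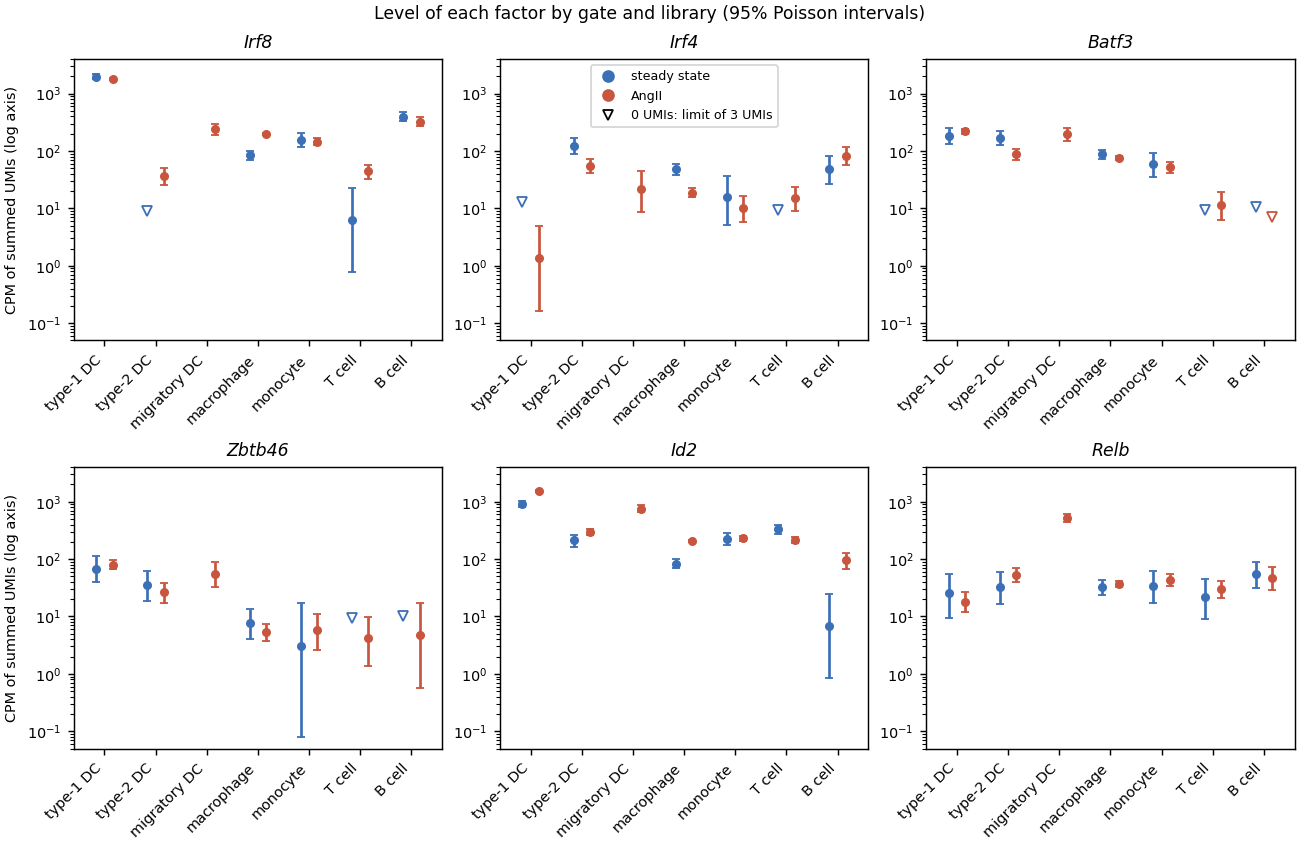
Level of each factor in CPM (log axis) in 7 gates, for the steady state library (blue) and the AngII library (red). Points are summed levels with 95% Poisson intervals, and open triangles are the limit set by 3 UMIs where none was counted. Irf8 stood highest in the type-1 gate in both libraries, and Relb in the migratory gate, which held no steady state barcode.

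Irf8, the factor on which type-1 dendritic cells depend, was concentrated in the type-1 gate in both libraries. It was not detected in the type-2 gate at steady state and was low there with AngII. In the type-1 gate it reached 1974 CPM (1797 to 2162; 461 UMIs) at steady state and 1800 CPM (1733 to 1870; 2680 UMIs) in the AngII library. In the type-2 gate it was at 0 of 335539 UMIs at steady state, a limit of 8.94 CPM, and at 37.0 CPM (25.8 to 51.4) in the AngII library. The type-1 level was thus at least 221-fold higher than the type-2 level at steady state, with the floor set at 3 UMIs over the gate, and 48.7-fold higher (34.9 to 70.1) with AngII. These sizes depended on the gating and averaging: assignment of barcodes by likelihood gave 29.7-fold (20.3 to 45.2) at steady state and 17.4-fold with AngII, and the mean of CPM per barcode gave 13.4-fold with AngII. The 125 AngII barcodes with Cd209a and C1q genes at no more than 0.1% of UMIs, whatever their gate, had 204 CPM (181 to 229; 287 UMIs). At steady state 16 such barcodes had 2.70 CPM (1 UMI). The source of the UMIs outside the type-2 gate was not tested. Each of the 11 steady state type-1 barcodes held Irf8, with 16 to 62 UMIs and a median of 44, and none of the 14 type-2 barcodes did, which allows a share of barcodes with a UMI, not of cells that express the gene, of up to 21.4%. At steady state the pair of gates thus did not overlap in Irf8 UMIs, and the share of all genes with such a split was not counted. The type-1 gate, 3.59% of the filtered barcodes at steady state, held 55.1% of the 837 Irf8 UMIs and 6.40% of the UMIs of all genes.

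Of the AngII type-1 barcodes, 94 of 113 (83.2%, 75.0 to 89.6) had an Irf8 UMI, and the rest were shallow. All 57 with at least 5000 UMIs held it, against 37 of 56 below that depth. In type-2 barcodes the shares were 15 of 45 at or above 5000 UMIs and 5 of 37 below. When each barcode was thinned to 1000 UMIs, which drops shallower barcodes (23 of 113 type-1 and 20 of 82 type-2), Irf8 was found in 81.1% of type-1 and 4.84% of type-2 barcodes. At steady state, where no barcode of these gates was that shallow, the thinned shares were 81.8% and 0 of 14. The steady state type-1 share rests on 9 of 11 barcodes (48.2 to 97.7%), so the similar values do not show that the libraries were equal. T cells are given for comparison: 1 of 37 held Irf8 at steady state (2.70%, median 8284 UMIs) and 12.6% in the AngII library (median 1038 UMIs, 8.50% after thinning). The 4.84% in AngII type-2 barcodes did not exceed that T cell share. However, T cells are no fixed floor, since their level was 6.36 CPM at steady state and 44.0 CPM with AngII. The source of the type-2 UMIs was not tested.

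Outside the dendritic gates, among gates with at least 10 barcodes, Irf8 was highest in B cells at steady state and in natural killer cells with AngII. At steady state its level fell from the type-1 gate to B cells (399 CPM, 329 to 479), monocytes (156 CPM), macrophages (85.0 CPM, 71.1 to 101) and T cells (6.36 CPM, 2 UMIs), and each of these steps was larger than counting error. The last step, from T cells to the type-2 gate, was not. The AngII order was type-1, natural killer cells (559 CPM, 10 barcodes), B cells (325 CPM), mast cells (317 CPM, 8 UMIs), the migratory gate (240 CPM), macrophages (197 CPM), monocytes (145 CPM), neutrophils (99.8 CPM), T cells (44.0 CPM) and the type-2 gate. Neighbours from B cells down to macrophages did not differ beyond counting error, nor did T cells and the type-2 gate. A group of 5 plasmacytoid dendritic barcodes in the AngII library, a type that also uses IRF8, had 637 CPM (371 to 1020; 17 UMIs). In migratory barcodes Irf8 was uneven: 14 of 31 held it, and 1 barcode held 32.5% of the 77 UMIs. Without that barcode the level was 169 CPM. The migratory level was 6.48-fold that of the type-2 gate (4.29 to 9.96) and 0.133-fold that of the type-1 gate (0.105 to 0.167).

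**Figure D2:**
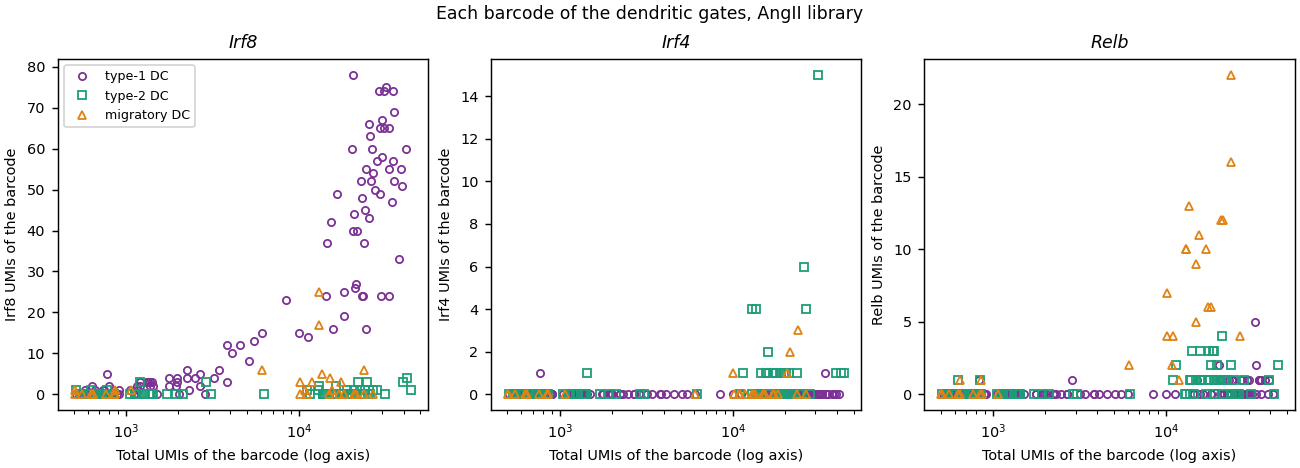
UMIs of Irf8, Irf4 and Relb in each barcode of the 3 dendritic gates against the total UMIs of the barcode (log axis), AngII library; circles are type-1, squares type-2 and triangles migratory barcodes. Irf8 UMIs rose with depth in type-1 barcodes to a highest count of 78, Irf4 UMIs sat mostly in deep type-2 barcodes, and the highest Relb count, 22, was in a migratory barcode.

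Irf4, the counterpart of Irf8 in type-2 cells, had the reverse pattern. It was at 122 CPM (87.7 to 166; 41 UMIs) in the steady state type-2 gate, and 12 of 14 barcodes held it. In the type-1 gate it was at 0 of 233589 UMIs, a limit of 12.8 CPM, and in 0 of 11 barcodes, which allows a share of barcodes with a UMI of up to 27.3%. The type-2 level was at least 9.51-fold higher. With AngII it was at 54.9 CPM (41.0 to 72.0; 52 UMIs) in the type-2 gate and at 1.34 CPM (2 UMIs) in the type-1 gate, a ratio of 40.9 (10.8 to 346). As a mean of CPM per barcode the ratio was 3.22. A single barcode held 15 of the 52 type-2 UMIs, and the level without it was 40.4 CPM. Of the AngII type-2 barcodes with at least 5000 UMIs, 22 of 45 held Irf4, compared with 1 of 57 type-1 barcodes of that depth. The thinned shares of 1.61% (type-2) and 0 of 90 (type-1) were too low to compare, and neutrophils, which should lack Irf4, had it in 0.797% of 251 barcodes at a median of 1286 UMIs.

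The barcodes with Irf8 and those with Irf4 were then set side by side. In the steady state dendritic gates 11 barcodes held Irf8 alone, 12 held Irf4 alone and none held both. With AngII both were found in 1 of 113 type-1 barcodes, where 2 held Irf4 at all, and in 1 of 31 migratory barcodes, where 4 did. Of the 82 type-2 barcodes 5 held both, 15 Irf8 alone, 18 Irf4 alone and 44 neither. Most barcodes lacked Irf4, so these AngII counts are too low to show whether the 2 genes avoid each other. Irf4 was not limited to the type-2 gate, however. Macrophages had 48.3 CPM (38.0 to 60.5) at steady state and 18.7 CPM (15.5 to 22.3) with AngII, and the type-2 levels were 2.53-fold (1.69 to 3.75) and 2.94-fold (2.08 to 4.10) of those. B cells, in which IRF4 drives the step to plasma cells, were at 48.5 CPM at steady state. With AngII they had the highest level of all gates, 83.2 CPM (57.9 to 116), which did not differ from the type-2 gate beyond counting error and was 61.6 CPM without its top barcode. The migratory gate had 21.8 CPM (8.76 to 44.9; 7 UMIs), close to the macrophage level (ratio 1.17, 0.459 to 2.47).

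Batf3, the AP-1 family partner of IRF8, was found in the dendritic, macrophage and monocyte gates and not in B cells, and its type-1 to type-2 ratio was beyond counting error in the AngII library but not at steady state. At steady state it was at 184 CPM (133 to 248) in type-1 and 170 CPM (129 to 220) in type-2 barcodes, a ratio of 1.08 with an interval from 0.712 to 1.64. All 11 type-1 barcodes held 2 to 7 UMIs and 13 of 14 type-2 barcodes held up to 12. In the AngII library the type-1 level of 220 CPM (197 to 245) was 2.51-fold (1.96 to 3.23) that of the type-2 gate, 87.7 CPM (69.8 to 109). The migratory gate was at 196 CPM (151 to 251), not different from type-1 beyond counting error, and 154 CPM without the barcode that held 25.4% of its UMIs. Macrophages were at 88.2 CPM (74.1 to 104) and 76.0 CPM (69.5 to 83.0), so that the AngII type-2 gate did not stand above them (ratio 1.15, 0.903 to 1.46). In B cells Batf3 was not detected: 0 of 50 and 0 of 115 barcodes held it, with limits of 10.4 and 7.13 CPM, against 59.3% of AngII type-1 barcodes (18 of 90 after thinning). T cells had none at steady state and 11.6 CPM with AngII, where 1 barcode held 7 of the 14 UMIs.

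Zbtb46, the zinc finger gene of the conventional dendritic lineage, had few UMIs per barcode and stood highest in the dendritic gates. At steady state it was at 68.5 CPM (39.2 to 111; 16 UMIs) in type-1, 35.8 CPM (18.5 to 62.5; 12 UMIs) in type-2 and 7.73 CPM (3.99 to 13.5; 12 UMIs) in macrophage barcodes, and at 0 in 91 lymphocytes, a limit of 4.80 CPM. In the AngII library the levels were 79.9 CPM (66.2 to 95.7) in type-1, 56.0 CPM (33.2 to 88.5) in migratory and 26.4 CPM (17.1 to 39.0) in type-2 barcodes, against 5.36 CPM (3.74 to 7.46) in macrophages and 4.07 CPM in lymphocytes. The dendritic gates together stood 6.37-fold (3.14 to 13.7) and 11.0-fold (7.56 to 16.3) above macrophages. Of AngII barcodes with at least 5000 UMIs, 42 of 57 type-1, 8 of 20 migratory and 16 of 45 type-2 barcodes held it, and 1.60% of macrophages did at a median of 1035.5 UMIs. Within the AngII type-2 gate, Zbtb46 was at 42.4 CPM (26.3 to 64.8) in the 32 barcodes with a UMI of Flt3, the receptor for the dendritic growth factor FLT3L, and at 8.86 CPM (2.41 to 22.7) in the 50 without. These subsets had median depths of 17400.5 and 1316 UMIs, and at steady state the values were 31.7 CPM (4 UMIs) and 38.2 CPM (8 UMIs).

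Id2, which blocks E proteins and so holds cells away from the plasmacytoid and B cell fates, was high in several gates. It reached 912 CPM (794 to 1043; 213 UMIs) in steady state type-1 barcodes, all 11 of which held it, and 1514 CPM (1452 to 1578; 2254 UMIs) with AngII. The type-1 level was 4.31-fold (3.28 to 5.72) that of the type-2 gate at steady state and 5.01-fold (4.43 to 5.69) with AngII, where the migratory gate lay between them at 759 CPM (667 to 861). All 57 type-1 and all 20 migratory AngII barcodes with at least 5000 UMIs held Id2, compared with 34 of 45 type-2 barcodes. In the AngII order, mast cells (1386 CPM) and natural killer cells (1304 CPM) did not differ from the type-1 gate beyond counting error. B cells, which rely on E proteins, were lowest of the gates with at least 10 barcodes at 6.93 CPM (2 UMIs) and 95 CPM (67.9 to 129). T cells were at 330 CPM (270 to 400) and 218 CPM (193 to 246). The 5 plasmacytoid barcodes held 0 of 26674 UMIs, a limit of 112 CPM. After thinning, 68.9% of type-1, 57.1% of migratory, 22.1% of macrophage, 12.9% of B cell and 11.3% of type-2 barcodes held Id2 in the AngII library, so the type-2 gate, above macrophages and B cells by its level, was not above them by this share.

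**Figure D3:**
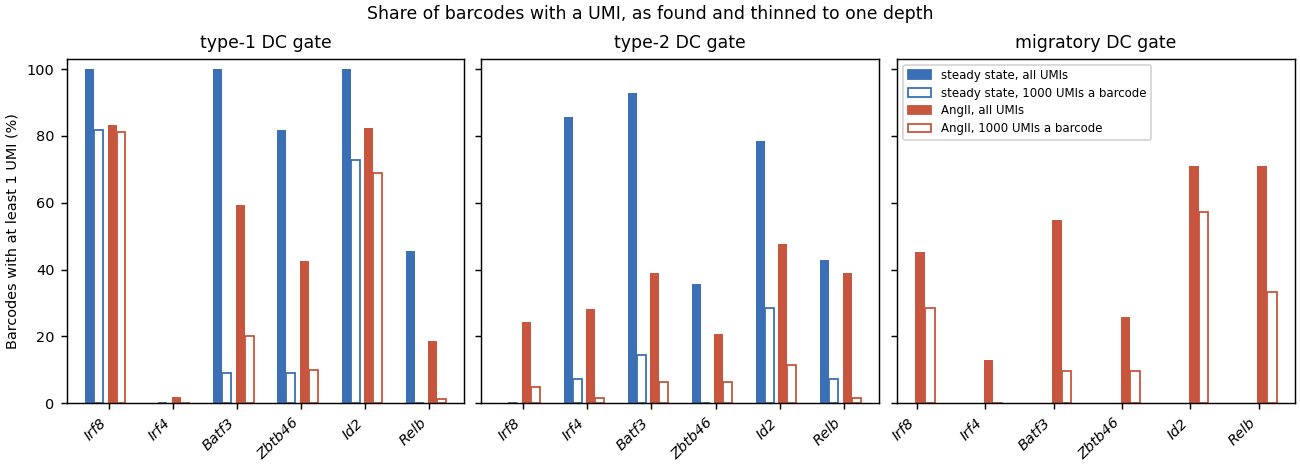
Share of barcodes with at least 1 UMI of each factor in the 3 dendritic gates, for all UMIs (filled bars) and after each barcode was thinned to 1000 UMIs (open bars), at steady state (blue) and with AngII (red). Irf8 kept 81.1% or more of type-1 barcodes in both libraries, whereas the shares of Batf3 and Zbtb46, which had few UMIs per barcode, fell to 20% or less.

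Relb stood out in the migratory gate. It reached 523 CPM (447 to 608; 168 UMIs) there, compared with 18.1 CPM (12.0 to 26.4) in type-1, 52.8 CPM (39.2 to 69.6) in type-2 and 36.6 CPM (32.1 to 41.6) in macrophage barcodes of the same library. The migratory level was 28.8-fold (19.1 to 45) that of type-1, 9.90-fold (7.18 to 13.9) that of type-2 and 14.3-fold (11.6 to 17.5) that of macrophages, and 16.5-fold (12.6 to 21.9) that of both other dendritic gates together. All 20 migratory barcodes with at least 5000 UMIs held Relb, against 30 of 45 type-2 and 19 of 57 type-1 barcodes. After thinning, the share was 33.3% of 21 migratory barcodes, 1.11% of type-1, 1.61% of type-2 and 4.37% of macrophage barcodes. No barcode held more than 13.1% of the gate's UMIs. Elsewhere Relb spanned a narrower range, in which the AngII type-2 level was 2.91-fold (1.79 to 4.84) that of type-1 and the type-1 level 0.495-fold (0.320 to 0.739) that of macrophages. At steady state its levels ran from 22.2 CPM in T cells to 55.5 CPM in B cells with no pair of neighbours that differed beyond counting error. In the AngII library only the step down from the migratory gate to the next gate was beyond it.

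The steady state library had no barcode in the migratory gate, but 1 barcode set aside as mixed held all 8 migratory and all 8 T cell markers. It had 48618 UMIs, more than 99.3% of the filtered barcodes, and 31 of the 140 Relb UMIs of the library (22.1%). Its Relb level was 638 CPM, with 1234 CPM of Ccr7. Id2 was at 1687 CPM, Irf8 at 350 CPM, and Irf4 at 0 in this barcode. Ccr7 is also a gene of resting T cells, so the sources of these transcripts cannot be told apart.

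Read against all genes, the factors split by gate. A gene was counted as higher or lower where its ratio was at least 2-fold or at most 0.5-fold with at least 20 UMIs in the gates compared. In the type-1 gate over macrophages, Irf8, Batf3, Zbtb46 and Id2 (4 of 6) were higher in both libraries, against 9.06% of 7829 genes at steady state and 8.39% of 10986 genes with AngII. Irf4 was lower in both, with Relb also lower in the AngII library, against 26.4% and 24.3% of genes. In the type-2 gate over macrophages, Irf4, Zbtb46 and Id2 were higher at steady state (8% of genes), Irf4 and Zbtb46 with AngII (5.18%), and Irf8 was lower in both (20% and 16.1%). In the migratory gate over macrophages, Batf3, Zbtb46, Id2 and Relb were higher (10.5% of genes) and none was lower (24.9%). The dendritic gates as 1 set had Irf8, Zbtb46 and Id2 higher than macrophages at steady state (8% of genes), the same with Batf3 and Relb in the AngII library (7.89%), and no factor lower (20.3% and 17.8%). Between type-1 and type-2 barcodes, Irf8 and Id2 were higher at steady state (8.4% of genes), joined by Batf3 and Zbtb46 with AngII (8.72%), while Irf4 was lower in both (14.8% and 12.2%), as was Relb with AngII. The migratory gate over both other dendritic gates had 1 factor higher, Relb (11.5% of genes), and 1 lower, Irf8 (23.3%). The same held over the type-1 gate alone (13.8% and 24.1% of genes), whereas over the type-2 gate 5 factors were higher (11.9%) and Irf4 was lower (23.7%).

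Each gate was then compared between the libraries. In type-1 barcodes, Irf8 was at 0.912-fold of its steady state level with AngII (0.826 to 1.01), Batf3 at 1.19-fold (0.866 to 1.68), Zbtb46 at 1.17-fold (0.690 to 2.11) and Relb at 0.706-fold (0.286 to 2.09). Only Id2 differed beyond counting error, at 1.66-fold (1.44 to 1.92). None of the 5 with enough UMIs passed 2-fold, against 12.7% of genes that were higher and 8.78% that were lower by that measure. The intervals of the other 4 still allow changes of the sizes given.

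In type-2 barcodes more of the set differed. Irf4 was at 0.450-fold (0.293 to 0.694) and Batf3 at 0.516-fold (0.364 to 0.736) with AngII, while Id2 was at 1.43-fold (1.10 to 1.88) and Irf8, at 0 at steady state, was at least 4.13-fold higher. Past 2-fold were Irf8 (10.9% of genes higher) and Irf4 (8.57% lower). The median depth of type-2 barcodes was 25110 UMIs at steady state and 12912.5 with AngII. Of the 35 AngII Irf8 UMIs in this gate, 9 were in barcodes under 5000 UMIs, where the level was 223 CPM, and 26 in deeper ones, at 28.7 CPM. The AngII Irf8 level of this gate, 37.0 CPM, did not exceed that of T cells in the same library (44.0 CPM), which were at 6.36 CPM at steady state. The Id2 direction did not hold after thinning, where 8 UMIs in 62 AngII barcodes and 6 in 14 steady state barcodes gave 0.301-fold (0.0916 to 1.05). For Irf4, thinning left 2 UMIs with AngII and 1 at steady state, too few for a ratio.

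In macrophages, Irf8 was at 197 CPM with AngII and 85.0 CPM at steady state, 2.32-fold (1.94 to 2.80), and Id2 at 207 and 83.7 CPM, 2.47-fold (2.06 to 2.98). Both passed 2-fold (8.38% of genes higher), and after thinning Irf8 was found in 20.5% and 6.45% of barcodes and Id2 in 22.1% and 5.65%. Irf4 was at 0.387-fold (0.288 to 0.523; 8.67% of genes lower), a direction that reversed after thinning, where 25 UMIs in 983 AngII barcodes and 1 in 124 steady state barcodes gave 3.15-fold (0.516 to 129). Batf3 (0.862-fold), Zbtb46 (0.694-fold) and Relb (1.14-fold) did not differ beyond counting error. Among macrophages with Lyve1 or Folr2 UMIs, genes of resident arterial macrophages, Irf8 was at 174 CPM (161 to 188) with AngII and 80.6 CPM (66.4 to 97.0) at steady state. Id2 was at 139 CPM (127 to 152) and 66.9 CPM (54.0 to 82.0) in the same subsets. In macrophages without those UMIs it was at 292 CPM and 226 CPM (37 UMIs). These made up 1266 of 1878 AngII and 12 of 126 steady state barcodes. The median depths with and without those UMIs were 1767.5 and 902.5 UMIs with AngII, and 10275.5 and 12257 at steady state. The part of depth in these counts was not tested.

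In lymphocytes, Irf8 in B cells was at 0.816-fold (0.632 to 1.06), and in T cells at 6.92-fold (1.82 to 58.6; 53 UMIs against 2; 22.9% of genes higher). Id2 was lower in T cells at 0.660-fold (0.524 to 0.837) and higher in B cells at 13.7-fold (3.55 to 117; 40 UMIs against 2; 6.73% of genes higher). T cell barcodes had a median depth of 8284 UMIs at steady state and 1038 with AngII, and B cells 5582 and 2152. No factor was lower past 2-fold in T cells (7.73% of genes) or B cells (6.15%). The summed macrophage markers were at 295 CPM in AngII T cells (8 of 8 found) and 31.8 CPM at steady state (4 of 8), and at 549 CPM (8 of 8) and 114 CPM (6 of 8) in B cells. Their part in these differences was not tested. In monocytes none of the 5 factors with enough UMIs passed 2-fold (12% of genes higher and 9.81% lower).

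**Figure D4:**
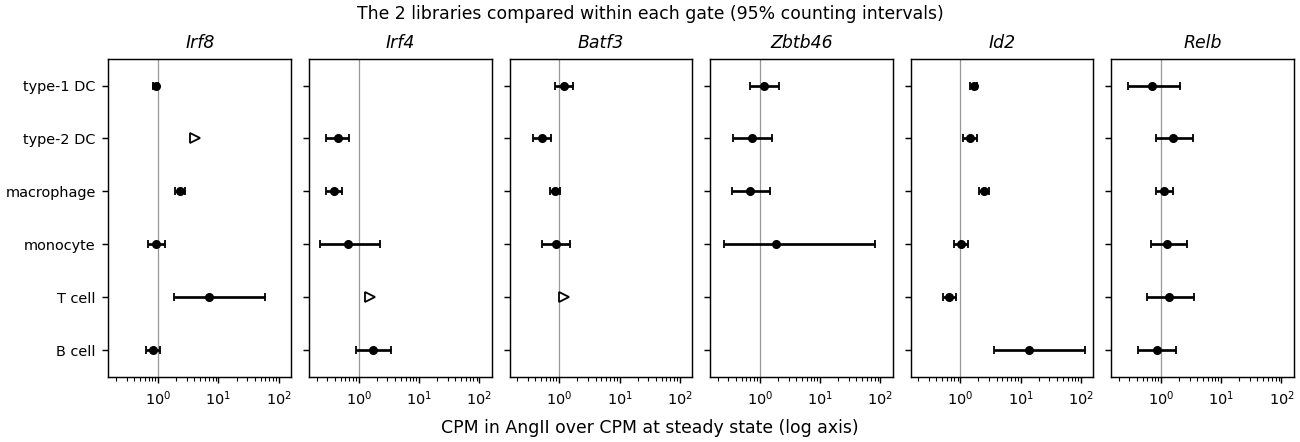
Ratio of each factor's level in the AngII library to that at steady state (log axis) in 6 gates, with 95% counting intervals; open triangles are lower bounds where the steady state count was 0, and pairs with too few UMIs have no point. The type-1 ratios of Irf8, Batf3 and Zbtb46 sat near 1, whereas Irf4 was below 1 in type-2 barcodes and macrophages.

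The 41 other regulators on 6 lists set these values in context, each compared with macrophages by the same 2-fold measure. In the migratory gate 12 of the 40 with enough UMIs were higher, against 10.5% of all genes, and 7 were lower, against 24.9%. The NF-kB relatives of Relb were at the front of the higher ones, with 3 of 4 on that list. Rel was at 10.2-fold (8.82 to 11.9), Nfkb2, which encodes a partner of RELB, at 4.72-fold (3.70 to 5.98) and Nfkb1 at 3.99-fold (3.33 to 4.76). Rela was the exception. Of the inputs of the non-canonical NF-kB pathway, which releases RELB, 4 of 6 were higher. These were the kinase Map3k14 (NIK) at 8.96-fold (6.95 to 11.5), the receptor Cd40 at 4.54-fold, and the adaptors Traf2 and Traf3, which restrain that kinase, at 4.58-fold and 3.44-fold. The receptor Ltbr was lower at 0.0643-fold (1 UMI). Outside these lists Prdm1 (3.36-fold), Irf1 (3.14-fold), Stat3 (2.94-fold), Etv6 (2.82-fold) and Runx3 (2.45-fold) were also higher. Irf7, Jun, Jund, Klf4, Zeb2 and Rbpj were lower. The list median in migratory barcodes was 4.36-fold for NF-kB and 3.99-fold for the inputs, beside 0.800-fold over all genes. In AngII type-2 barcodes Nfkb1 (2.29-fold), Rel (2.10-fold) and Map3k14 (2.30-fold) were also higher, and Relb was at 1.44-fold (1.04 to 1.96). The list medians there were 1.68-fold and 0.896-fold, beside 0.893-fold over all genes.

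**Figure D5:**
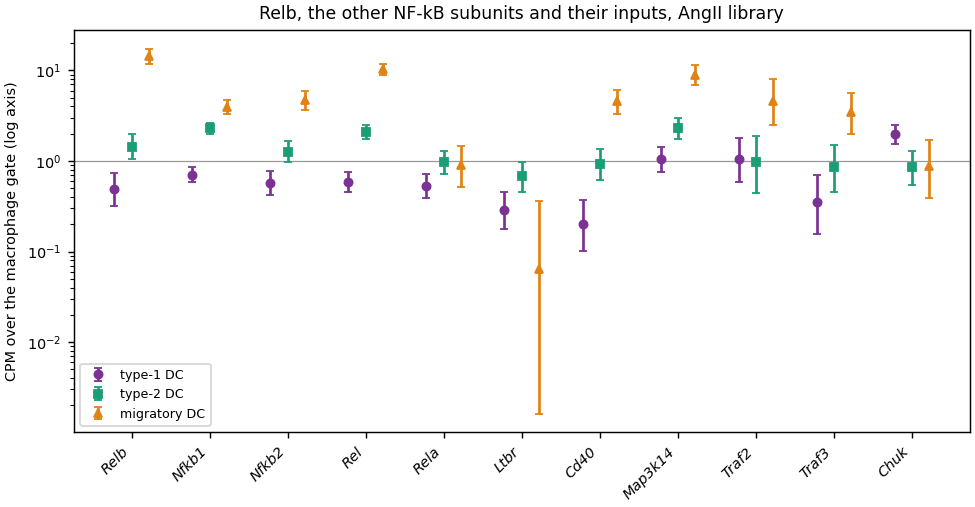
Level of Relb, the other NF-kB subunits and the inputs of the non-canonical pathway in the 3 dendritic gates relative to macrophages (log axis), AngII library, with 95% counting intervals. Relb, Rel, Nfkb2, Map3k14 and Cd40 stood above 1 in migratory barcodes, whereas Relb, Rel and Cd40 stood below 1 in type-1 barcodes. In type-2 barcodes Relb, Rel, Nfkb1 and Map3k14 also stood above 1, at lower ratios than in migratory barcodes.

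In type-1 barcodes 3 of 34 regulators were higher at steady state and 4 of 40 with AngII, beside 9.06% and 8.39% of all genes. There 8 and 13 were lower, beside 26.4% and 24.3%. Irf5 was higher in both at 2.82-fold (2.07 to 3.80) and 2.22-fold (1.96 to 2.50), as was Bcl6 at 5.09-fold and 2.03-fold. Mycl, a factor of type-1 cells, was at 18.2-fold (12.5 to 27.1) with AngII. Zeb2 and Klf4, which act in type-2 cells and macrophages, were lower at 0.0180-fold and 0.0932-fold at steady state and 0.0213-fold and 0.172-fold with AngII. In type-2 barcodes 2 of 35 were higher at steady state and 6 of 40 with AngII, beside 8% and 5.18% of all genes, and 5 and 4 were lower, beside 20% and 16.1%. Bcl11a was higher in both at 54.0-fold (17.0 to 274, with 35 UMIs against 3) and 8.79-fold (6.34 to 12.2), as was Runx3 at 6.25-fold and 2.64-fold. Neither gene was particular to the type-2 gate. Bcl11a was at 8.32-fold (6.17 to 11.3) in AngII type-1 barcodes and at 0.589-fold (2 UMIs) in migratory ones. Runx3 was at 5.65-fold and 1.14-fold in type-1 barcodes at steady state and with AngII, and at 2.45-fold in migratory barcodes. Tcf4, the E protein of plasmacytoid cells that ID2 restrains, was lower in type-1 barcodes at 0.212-fold and 0.101-fold, and also in steady state type-2 barcodes at 0.218-fold (0.147 to 0.313).

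Over 16 gates with at least 10 barcodes (6 at steady state and 10 with AngII), Batf3 and Zbtb46 had the most similar patterns among the 6 factors (r = 0.837 on log2 of CPM plus 20), and Irf4 and Id2 the most opposed (r = -0.68). Gates of 1 library share its depth, so these values describe the gates and have no test. Among 9432 genes outside the marker lists, those most like Irf8 were Acadl (r = 0.788), Tap1 (0.747) and Stx17 (0.736). Those most like Batf3 were Zfp516 (0.925), Ctnna1 (0.925) and Shtn1 (0.910), and those most like Zbtb46 were Tspan33 (0.936), Mtmr4 (0.903) and Strip2 (0.888). Plekha5 (0.824), Ifi35 (0.822) and Dctn3 (0.798) came nearest to Id2. Uap1 (0.913), Acvr2a (0.907) and Bclaf3 (0.881) came nearest to Relb, each with its highest level in the migratory gate. Dguok (0.787), Blnk (0.773) and Crip2 (0.771) came nearest to Irf4. With a lower UMI minimum or 5 in place of 20 CPM added, 0 or 1 of the 3 genes nearest to Irf4 stayed among the top 3. For Irf8, Batf3, Zbtb46 and Id2 at least 2 of 3 stayed, and for Relb all 3.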

How the data were processed

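CD45+ cells of 2 libraries (10x Genomics 3' v3.1 chemistry) were analysed from the deposited matrices, which hold raw UMI counts per gene and barcode. Per the labels, the authors used Cell Ranger 3.1.0 and GRCm38.p6. Gene positions are from GENCODE M21. Scripts ran on Python 3.11.15, NumPy 2.4.6, SciPy 1.17.1 and pandas 2.3.3. The filter required 300 to 6500 genes in a barcode and a mitochondrial share of no more than 5% of UMIs. A barcode entered the class with the most of its 8 markers found (at least 2). Dendritic gates also needed an anchor UMI, and C1q genes at no more than 0.1% of UMIs (or 1 UMI), above which lay macrophages. Barcodes were left out where classes tied or a second class had at least 3 markers and at least 0.5 times as many as the leading class. The C1q limit and this rule were settled after the data were seen, and the latter replaces a plan to leave out barcodes with the anchors of more than 1 class. The factors, marker lists and regulator lists were chosen with earlier results of these data known. The 3 genes most like each factor had the highest Pearson r over gates, with at least 100 UMIs. The regulators named, apart from Rela, were among those that passed 2-fold in a dendritic gate, and not all that passed are named. Thinning drew 1000 UMIs per barcode without replacement. No test between groups was possible with 1 library each. Steps were tested on simulated counts. Alternatives covered the barcode filter, marker minimum, gate assignment by likelihood, thinning, mean CPM per barcode, mixed barcodes kept, depth of at least 2000 UMIs, and, chosen after seeing the data, C1q limits and the top barcode left out.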

Additional observations from a re-analysis of the deposited data

Results flagged for a closer look

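For 2 of the 6 factors, the ratio of AngII to steady state went in opposite directions in different gates, each beyond counting error. The difference between gates was not tested, since there was 1 library per condition. The share of all genes with such opposite ratios was not counted. Id2 was higher with AngII in type-1 barcodes (1.66-fold), type-2 barcodes (1.43-fold, reversed to 0.301-fold after thinning), macrophages (2.47-fold) and B cells (13.7-fold), and lower in T cells (0.660-fold). Irf4 was lower in type-2 barcodes (0.450-fold, with too few UMIs for a ratio after thinning) and macrophages (0.387-fold, reversed to 3.15-fold after thinning). In T cells it was at least 1.57-fold higher, with 18 UMIs against 0.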

How the results depend on the processing

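Of 104 alternative values for the 11 ratios between gates, 92 stayed within the main interval or left the bound open, 12 moved and none turned a ratio that was beyond counting error. The steady state Batf3 ratio, whose interval includes 1, was 0.960 by likelihood and 0.994 with a C1q limit of 0.2%, and the steady state Irf8 bound was 7.64 after thinning. The Irf8 ratio of type-1 to type-2 barcodes was 29.7 at steady state and 17.4 with AngII when barcodes were assigned by likelihood. For AngII it was 27.4 after thinning and 13.4 as a mean of CPM per barcode. The Id2 ratio was 2.12 (0.698 to 7.10) at steady state after thinning, and with AngII 3.62 by likelihood and 10.6 after thinning. The Batf3 ratio with AngII was 3.79 after thinning. The Irf4 ratio of type-2 to type-1 with AngII was 3.22 as a mean of CPM, where 1 UMI in a barcode of few UMIs counts for much. The Relb ratio of the migratory to both other dendritic gates was 11.5 by likelihood, 25.3 after thinning and 10.4 as a mean of CPM. Between libraries, 132 of 149 values for 17 ratios stayed the same, 15 moved and 2 reversed, both after thinning: Id2 in type-2 barcodes (0.301) and Irf4 in macrophages (3.15). Thinning moved 49 of 66 shares. The cause was not tested. Thinning left too few UMIs for the steady state ratios of Batf3, Irf4 and Zbtb46 and the AngII ratio of Irf4. Between libraries it left too few for Irf4 in type-2 barcodes and for Relb in type-1 and type-2 barcodes. The mean of CPM has no ratio where a gate is at 0, and the steady state Relb ratio has no migratory gate. No paired analysis was possible because there was 1 library per condition and no test. Depth limits the AngII library, and 11 and 14 barcodes limit the steady state dendritic gates.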

Other observations

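The barcodes with Cd209a but with C1q genes above 0.1% of UMIs, which were counted as macrophages or left out, had Irf4 at 68.8 CPM (46.7 to 97.7; 33 barcodes) at steady state, between the 121 CPM (88.6 to 163) of the 16 Cd209a barcodes under that limit and the 48.3 CPM of the macrophage gate. Their Zbtb46 level of 8.88 CPM (2.42 to 22.7) was close to the 7.73 CPM of macrophages, and that of the barcodes under the limit was 35.1 CPM (18.7 to 60.0). In the AngII library the levels above and under the limit were 31.5 and 48.2 CPM for Irf4 and 16.6 and 24.8 CPM for Zbtb46, in 173 and 125 barcodes.

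Within the AngII type-2 gate, Irf4 was at 26.3 CPM (14.0 to 44.9; 13 UMIs) in barcodes with a Flt3 UMI. Barcodes without such a UMI had 86.4 CPM (61.4 to 118; 39 UMIs), the reverse of Zbtb46. The median depths of these sets were 17400.5 and 1316 UMIs. A barcode with 15 Irf4 UMIs, more than the whole Flt3 set held, was in the set without Flt3. Whether the difference exceeds counting error without that barcode was not tested. At steady state Irf4 had 19 UMIs in 5 barcodes with Flt3 (151 CPM, 90.6 to 235) and 22 UMIs in 9 barcodes without. These subsets were chosen after the values were seen.

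In the AngII macrophage gate, 1 barcode held 74 Irf8 UMIs, 5.75% of the gate's total, and the level without it was 187 CPM.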
